A study of Mus musculus with 6 samples.

Results

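The cell-surface heparan sulfate proteoglycans comprise 2 gene families, the syndecans (Sdc1, Sdc2, Sdc3 and Sdc4) and the glypicans (Gpc1 to Gpc6). All 10 genes were followed as named family members, among 51826 genes in each library. This choice was made with earlier results of these data known. All 10 were found by their Ensembl numbers. The RNA came from MEFs (fibroblasts of the mouse embryo, the cells that lay down connective tissue, in primary culture), of strain background C57BL/6 and at passages 2 to 5. The 3 Het cultures, numbered 11, 15 and 18, carried Lztr1 +/-, and the 3 WT cultures, numbered 10, 12 and 16, carried Lztr1 +/+. Both genotypes were grown in DMEM on uncoated plastic, with no other allele or treatment in the labels. LZTR1 brings RAS-family proteins to the ubiquitin ligase built on CUL3. The labels give neither the structure of the mutant allele nor whether a culture came from 1 embryo or several. By Xist and Y-linked transcripts each genotype had male and female cultures, so its cultures came from more than 1 embryo. Each p-value measures the spread among these 6 cultures only, which may in part be technical, as cultures of 1 sex could share an embryo. The comparison asks which transcripts differ between Het and WT cultures.

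Syndecans cross the plasma membrane once and carry heparan sulfate chains on an extracellular domain that proteases can shed, while a short cytoplasmic tail binds PDZ proteins and the actin-linked scaffold. Glypicans have a globular, disulfide-bonded core held in the outer membrane leaflet by a glycosylphosphatidylinositol anchor, with the chains near the membrane. The sulfated chains bind growth factors and morphogens such as FGFs, HGF, midkine, WNTs and hedgehogs and present them to signalling receptors. In fibroblasts, syndecan-4 is known as a co-receptor for fibronectin at focal adhesions, and glypican-3 is known from mice as a brake on hedgehog-driven growth of the embryo.

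The shared tail of the syndecans can be read in the ends of their coding regions, which are shown because they are what unites this family. The last 60 coding bases, from the GENCODE M21 annotation of GRCm38 (the files' build mm10), are given 5′ to 3′ with the final 4 codons and the stop codon in capitals.
Sdc1: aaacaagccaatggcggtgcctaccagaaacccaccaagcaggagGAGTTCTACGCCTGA
Sdc2: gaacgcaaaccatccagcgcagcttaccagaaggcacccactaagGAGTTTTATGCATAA
Sdc3: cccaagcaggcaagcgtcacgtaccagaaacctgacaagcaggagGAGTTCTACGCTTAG
Sdc4: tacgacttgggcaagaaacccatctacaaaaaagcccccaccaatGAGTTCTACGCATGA
The capitals spell the same closing residues, the PDZ-binding end, in all 4 genes with different codons. Compared position by position without gaps, over these 60 bases Sdc1 and Sdc3 were identical at 38 positions and Sdc2 and Sdc4 at 31. The lowest match was between Sdc2 and Sdc3, at 22 positions. Sdc1 lies at chr12:8771323-8793715, Sdc2 at chr15:32920723-33034935, Sdc3 at chr4:130792537-130826319 and Sdc4 at chr2:164424247-164443887 (mm10). The annotated coding regions used here encode 311, 202, 442 and 198 residues in that order, so Sdc3 has the longest core protein.

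The glypicans fall into pairs of neighbours and of relatives. Gpc3 (chrX:52272426-52613950) and Gpc4 (chrX:52053021-52165252) lie 107.2 kb apart on the same strand with 0 annotated genes between them. Gpc5 (chr14:115092215-116525179) and Gpc6 (chr14:116925315-117976544) lie 400.1 kb apart with 0 protein-coding genes between. Gpc1 lies at chr1:92831645-92860779 and Gpc2 at chr5:138273655-138280005. By coding sequence the neighbours were not each other's best match. Gpc4 was most like Gpc6, at 65.3% identity, and Gpc3 most like Gpc5, at 52.6%, against 46.6% between the neighbours Gpc3 and Gpc4. Gpc1 was most like Gpc6, at 56.7%. No window of 50 bases was shared between any 2 of the 10 genes, so no exact read of that length fits more than one of them. Other annotated genes did overlap: 49.7% of the Gpc2 windows were shared with the predicted gene Gm43720 and 18.01% of the Gpc1 windows with Ankmy1. Gm43720 had at most 4.77 expected counts and Ankmy1 at most 9 in any library, so few reads were assigned to either, though how RSEM divided reads between them and the glypicans cannot be read from the tables.

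Library totals were 11028854 to 21885101 expected counts in Het cultures and 11025286 to 14030349 in WT cultures. Lztr1 gave 45.9, 45.1 and 43.8 CPM (counts scaled to library size with TMM factors) in Het cultures 11, 15 and 18, against 93.9, 94.1 and 83.2 CPM in WT cultures 10, 12 and 16. The groups did not overlap, and the log2 difference, Het minus WT, was -1.01 (SE 0.066, edgeR quasi-likelihood test, adjusted p = 0.00457). An exact two-sided permutation test gave p = 0.1, the smallest that 3 against 3 cultures allow. The adjusted p rose above 0.05 when any single culture other than WT culture 16 was left out (highest 0.0759). All 10 fibroblast markers reached 1 TPM and none was at 0, with sums of 8998 to 10173 TPM in Het cultures and 9322 to 11120 TPM in WT cultures. Markers of macrophages (241 to 428 TPM in Het, 293 to 388 TPM in WT), erythroid cells (247 to 504 TPM in Het, 124 to 435 TPM in WT), skeletal muscle, epithelium and neural cells were also present, whereas all 7 plasma and B cell markers stayed under 1 TPM and Ms4a1 was at 0. In such bulk RNA, fewer cells of a type and less RNA per cell cannot be told apart. WT culture 16 stood apart: without it edgeR called 896 genes in place of 1. Without it, WT cultures 10 and 12 stand against Het cultures 11, 15 and 18, so genotype is partly tied to culture number. This limit holds for every result below without WT culture 16. For the matrix proteoglycan gene Dcn, WT culture 16 read 79.9 TPM, against 169 and 167 TPM in WT cultures 10 and 12. Het cultures read 84.9 to 88.4 TPM.

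Of the 10 genes, 9 were clearly transcribed and Gpc5 was at the edge of detection. On the TPM scale, transcript counts corrected for length and library size, Gpc3 was the most abundant at 339 ± 86.2 TPM in Het and 411 ± 54.0 TPM in WT cultures (SD, n = 3 each). This placed it between percentiles 96.3 and 97.7 of all genes at 1 TPM or more, depending on the library. Gpc4 followed at 192 ± 6.27 TPM in Het and 184 ± 6.59 TPM in WT, and Sdc1 at 142 ± 10.5 TPM in Het and 159 ± 13.2 TPM in WT. Both neighbours on the X chromosome therefore headed the family, with a gap to every other glypican.

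The middle of the order was held by 3 syndecans and Gpc1. Sdc2 averaged 82.9 ± 9.74 TPM in Het and 92.1 ± 8.02 TPM in WT cultures. Sdc3, best known from neural tissue, averaged 75.8 ± 2.60 TPM in Het and 73.3 ± 4.55 TPM in WT. Gpc1 averaged 52.2 ± 2.17 TPM in Het and 60.7 ± 8.12 TPM in WT. Sdc4 averaged 42.6 ± 2.89 TPM in Het and 42.6 ± 6.02 TPM in WT. The lowest of the detected genes were Gpc2, a mainly neural glypican, at 28.0 ± 4.45 TPM in Het and 29.4 ± 8.10 TPM in WT, and Gpc6 at 22.6 ± 3.33 TPM in Het and 25.8 ± 4.04 TPM in WT.

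This order was nearly the same in every culture. Neighbours in the order whose ranges over the 6 libraries overlapped were Sdc2 and Sdc3, Sdc4 and Gpc2, and Gpc2 and Gpc6, and each of these pairs was in the stated order in 5 of 6 libraries. Every other pair of neighbours was in order in 6 of 6 libraries without overlap of their ranges. Gpc5 gave 7, 4 and 0 expected counts in Het cultures 11, 15 and 18, against 5, 4 and 2 in WT cultures 10, 12 and 16. A count of 3 equals 0.137 to 0.272 CPM here, so the one library with 0 does not show absence. Gpc5 did not pass the low-count filter and was not tested in the comparison of genotypes.

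**Figure D1:**
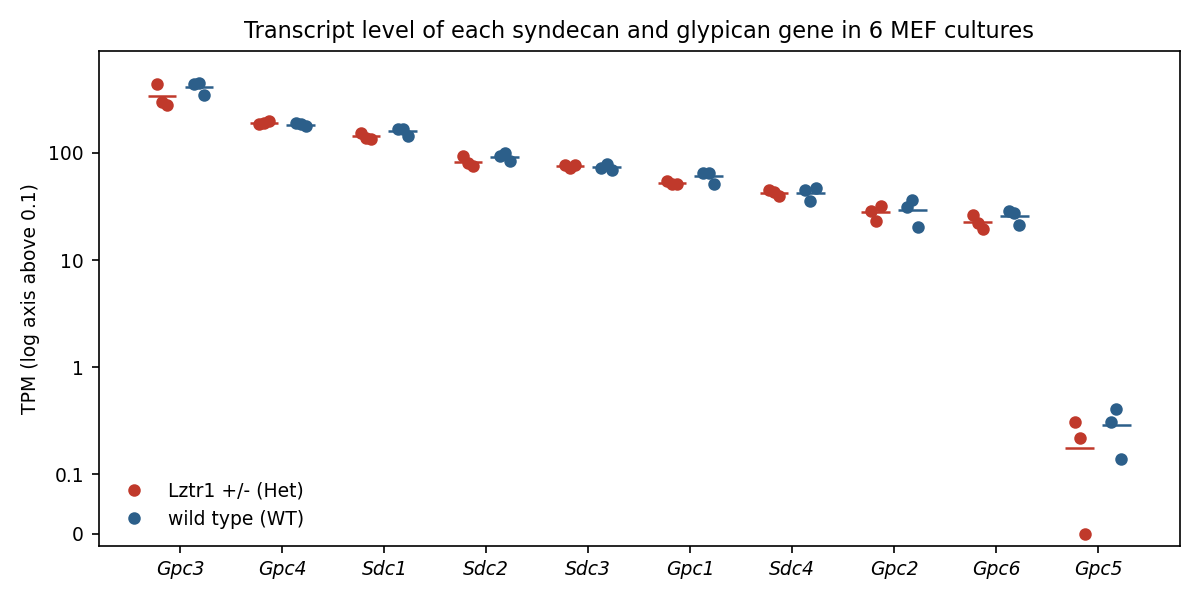
TPM of each of the 10 genes (log axis above 0.1 TPM, linear below it) in the 3 Het cultures (red, left) and the 3 WT cultures (blue, right), ordered by mean level. Points are cultures and bars group means. Gpc3 leads at 280 to 438 TPM in Het and 348 to 446 TPM in WT cultures, and Gpc5 stays under 1 TPM.

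Summed over both families, surface proteoglycan transcripts came to 977 ± 109 TPM in Het and 1078 ± 101 TPM in WT cultures, a difference within the spread of the cultures. Glypicans made up most of this sum, at 633 ± 86.4 TPM in Het and 711 ± 80.1 TPM in WT, and syndecans gave 344 ± 23.0 TPM in Het and 367 ± 20.6 TPM in WT. The syndecan share was 35.3 ± 1.52% in Het and 34.2 ± 1.35% in WT. Gpc3 alone held 39.7%, 32.4% and 30.9% of the sum in Het cultures 11, 15 and 18, against 38.7%, 39.1% and 36.2% in WT cultures 10, 12 and 16. Het culture 11 lay with the WT cultures, so the groups overlapped. Gpc4 held 16.8%, 20.8% and 21.8% in the same Het cultures, against 16.8%, 16.3% and 18.4% in the WT cultures, and the groups overlapped. The ratio of Gpc3 to Gpc4 was 2.36, 1.56 and 1.42 in Het cultures, against 2.30, 2.40 and 1.97 in WT cultures.

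**Figure D2:**
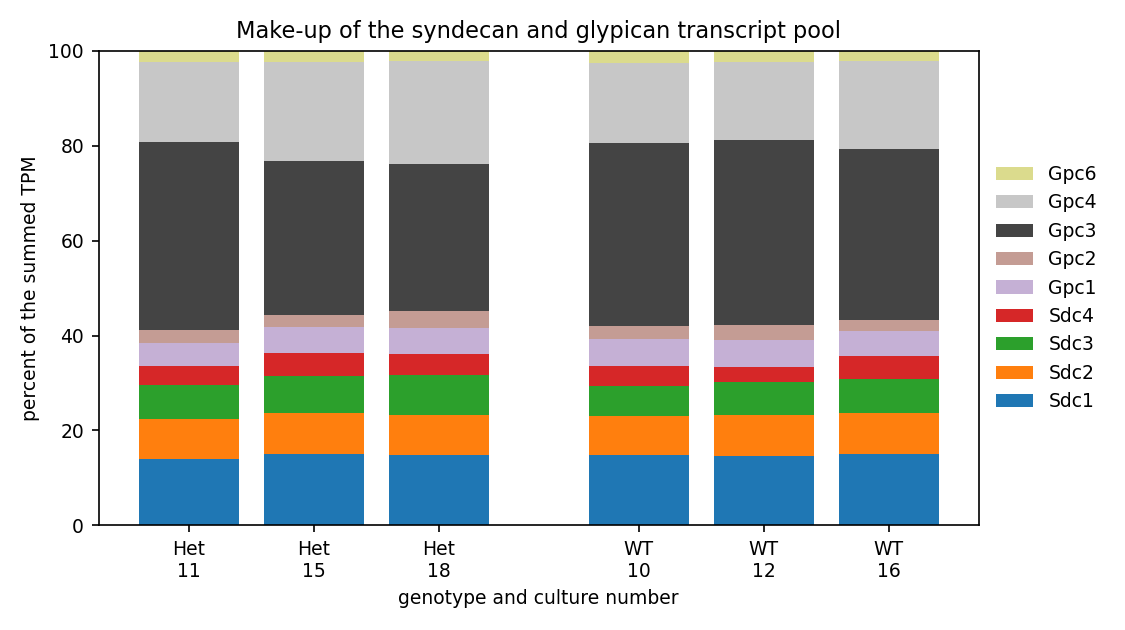
Share of the summed TPM of all 10 genes held by each gene (percent, stacked), for Het cultures 11, 15 and 18 (left) and WT cultures 10, 12 and 16 (right). Gpc5 is too small to draw, at 0.0359% or less. The Gpc3 band is narrowest in Het cultures 15 and 18, at 32.4% and 30.9%.

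None of the 9 tested genes was called between genotypes by edgeR at an adjusted p under 0.05, where 0.00683% of all genes tested were called, namely Lztr1 alone. Below an unadjusted p of 0.05, 0 of the 9 were higher and 2 were lower (Sdc1 and Gpc1), beside 5.56% of all genes higher and 6.65% lower. DESeq2 called 0 of the 9 and 0.764% of all genes. The median log2 difference of the 9 genes was -0.13, with a negative fitted difference for 6 of 9 (Gpc2 among them at 0.00, which turned positive with DESeq2 size factors), beside 0.00 over all genes. This median was -0.21 without Het culture 11, -0.05 without Het culture 18 and -0.07 without WT culture 10, so its size rests on which cultures are kept. Fibroblast markers had a median of -0.25, with a negative difference for 8 of 10. Cartilage and bone markers also had a median of -0.25, with 7 of 7 negative and sums of 84.1 to 273 TPM in Het and 212 to 271 TPM in WT cultures, and skeletal muscle markers one of -0.24, with 5 of 6 negative. Other marker lists had positive medians: 0.61 for erythroid cells (6 of 6 positive), 0.33 for endothelium (5 of 7) and 0.20 for neural and Schwann cells (7 of 9). Epithelium (6 of 9 positive) and macrophages (7 of 8) each had a median of 0.16. The part of any of these cells in the values of the family was not tested. Groups that did not overlap were seen for 0 of the 9 genes in the higher direction, beside 7.75% of all genes, and for 1, Sdc1, in the lower direction, beside 9.97%.

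Among the syndecans, Sdc1 had the clearest separation. Sdc1, the main epithelial and plasma cell syndecan, gave 242, 224 and 211 CPM in Het cultures 11, 15 and 18, against 258, 256 and 245 CPM in WT cultures 10, 12 and 16. All Het cultures were below all WT cultures. The log2 difference was -0.16 (SE 0.064, 95% interval -0.31 to -0.01, edgeR adjusted p = 0.378). The nearest cultures of the groups were Het culture 11 and WT culture 16, which differed by less than the range within the Het group. The epithelial markers, which could carry Sdc1 transcripts, summed to 139 to 287 TPM in Het and 132 to 219 TPM in WT cultures, and their part in the Sdc1 level was not tested.

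Sdc2, the main mesenchymal syndecan, gave 180.2, 157 and 142 CPM in Het cultures, against 176, 183 and 167 CPM in WT cultures. Het cultures 15 and 18 were the lowest 2 of the 6, while Het culture 11 fell among the WT values. Its log2 difference was -0.13 (SE 0.088, 95% interval -0.33 to 0.07, edgeR adjusted p = 0.570), and it was -0.23 without Het culture 11 and -0.05 without Het culture 18. Sdc3 gave 225, 214 and 225 CPM in Het cultures, against 208, 219 and 209 CPM in WT cultures, and the groups overlapped. Its log2 difference of 0.06 had one of the narrowest intervals of the family, -0.06 to 0.18 (edgeR adjusted p = 0.650).

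Sdc4, the focal adhesion syndecan, gave 61.6, 61.9 and 54.1 CPM in Het cultures, against 51.9, 47.5 and 67.1 CPM in WT cultures. WT culture 16 was the highest of all 6 and WT culture 12 the lowest. The log2 difference was 0.10 (SE 0.13, 95% interval -0.19 to 0.39, edgeR adjusted p = 0.778). The effective length that RSEM gave Sdc4 was 1888 bases in WT culture 10 against 2228 to 2255 bases in the other libraries, so per length this culture read 45.5 TPM and no longer lay below the Het values. With effective lengths as an offset the Sdc4 difference was 0.02, and without WT culture 16 it was 0.26 (edgeR adjusted p = 0.1003).

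Of the glypicans, Gpc1 was the nearest to a call. Gpc1, the most widely expressed glypican in adult tissues, gave 132, 126 and 122 CPM in Het cultures, against 153, 147 and 129.5 CPM in WT cultures. WT culture 16 lay inside the Het range, and the other WT cultures lay above it. The log2 difference was -0.17 (SE 0.072, 95% interval -0.34 to -0.01, edgeR adjusted p = 0.391). Without WT culture 16 it was -0.24 (SE 0.051, edgeR adjusted p = 0.0407), in a fit that called 5.93% of all genes. Over the 6 settings that left out 1 culture its adjusted p ran from 0.0407 to 0.794, so this call rests on which WT cultures are kept. Genotype was also partly tied to culture number in the fit that made the call, as described above.

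Gpc3 had the largest log2 difference of the 9 in size and the widest interval. Gpc3 gave 539, 375 and 341 CPM in Het cultures, against 527, 524 and 445 CPM in WT cultures. The highest and the lowest of the 6 values both came from Het cultures. The log2 difference was -0.25 (SE 0.16, 95% interval -0.63 to 0.12, edgeR adjusted p = 0.546). It was -0.48 without Het culture 11 and -0.12 without Het culture 18, where it was no longer the largest of the 9. Its neighbour Gpc4, known as an FGF and WNT modulator, gave 279.6, 295 and 295 CPM in Het cultures, against 281, 268 and 277 CPM in WT cultures. The Gpc4 values stayed within a narrow band, with a log2 difference of 0.07 (SE 0.055, 95% interval -0.05 to 0.20, edgeR adjusted p = 0.597).

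Gpc6, the close relative of Gpc4 on chromosome 14, gave 106, 91.0 and 78.0 CPM in Het cultures, against 111, 107 and 86.6 CPM in WT cultures. The groups overlapped, and the log2 difference was -0.15 (SE 0.13, 95% interval -0.44 to 0.14, edgeR adjusted p = 0.659). With 1 culture left out it ran from -0.26 (without Het culture 11) to -0.04 (without Het culture 18). Gpc2 gave 37.0, 28.3 and 40.8 CPM in Het cultures, against 38.2, 39.2 and 28.4 CPM in WT cultures. One culture of each genotype was low, and the log2 difference was 0.00 (95% interval -0.37 to 0.37, edgeR adjusted p = 1.00). The intervals differ in what they leave possible: for Sdc3 and Gpc4 the fold, Het over WT, lay between 0.960 and 1.149, whereas for Gpc3 it lay between 0.648 and 1.09.

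**Figure D3:**
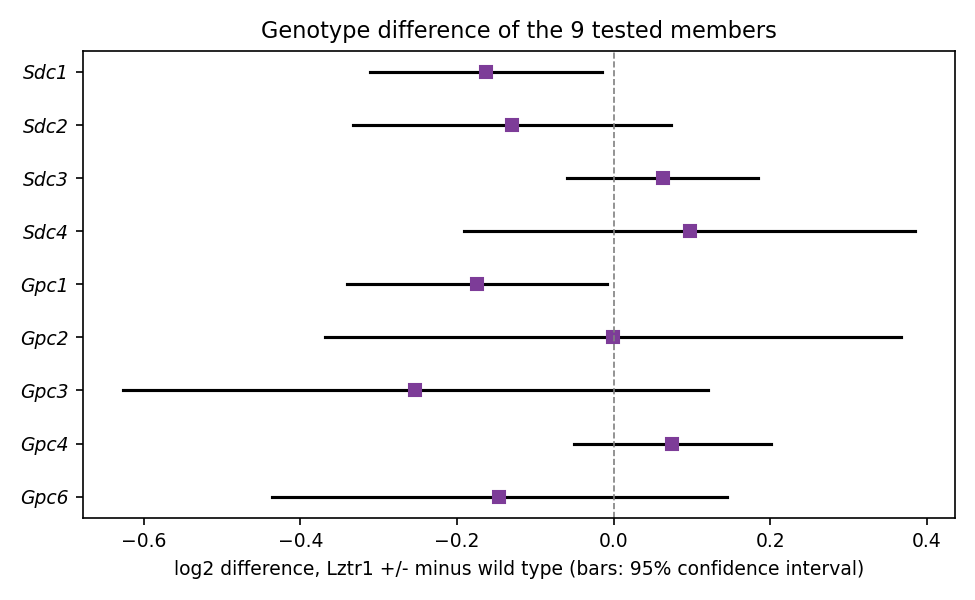
Log2 difference in CPM, Het minus WT, of the 9 tested genes from the edgeR fit (squares) with 95% confidence intervals (bars, 3 cultures per group). The intervals of Sdc1 and Gpc1 end just below 0, at -0.01, before adjustment over all genes; no adjusted p was under 0.05.

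The spread within a genotype followed the culture numbers for part of the family. The numbers form a run 10 to 12 and a run 15 to 18, each with both genotypes, and the labels do not say what the runs stand for. Gpc3 gave 375, 341 and 445 CPM in cultures 15, 18 and 16, against 527, 539 and 524 CPM in cultures 10, 11 and 12. With genotype in the model the difference between the runs was -0.42 on the log2 scale (SE 0.085, 95% interval -0.61 to -0.22, edgeR unadjusted p = 0.00146, adjusted p = 0.175). Gpc6 showed the same split, at 78.0 to 91.0 CPM in cultures 15 to 18, against 106 to 111 CPM in cultures 10 to 12 (log2 difference -0.33, SE 0.069, edgeR unadjusted p = 0.00182, adjusted p = 0.179). Sdc2 differed by -0.19 (edgeR adjusted p = 0.294) and Gpc1 by -0.15 (edgeR adjusted p = 0.301).

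All cultures 15 to 18 were below all cultures 10 to 12 for 4 of 9 genes (Sdc2, Gpc1, Gpc3 and Gpc6), beside 10.2% of all genes, and above them for 0 of 9, beside 10.7%. No member passed the adjusted threshold between runs, where edgeR called 0.0478% of all genes; the same 4 members were below an unadjusted p of 0.05, all lower, beside 6.58% of all genes lower and 7.08% higher. Gpc4 (log2 difference 0.05, 95% interval -0.08 to 0.17) and Sdc3 (-0.03, 95% interval -0.16 to 0.09) had intervals that span 0. Macrophage markers were also higher in cultures 15 to 18, at 388 to 428 TPM against 241 to 294 TPM, and so were erythroid markers, at 434 to 504 TPM against 124 to 247 TPM, and epithelial markers, at 218 to 287 TPM against 132 to 174 TPM. By mean level the largest parts of the epithelial sum were Krt18 and Krt8, which split by run, as did Cdh1 and Cldn4. Krt5, Krt14, Krt19 and Epcam overlapped between the runs, with Krt5 highest in WT culture 12, at 15.45 TPM. The part of macrophages, erythroid cells and epithelial cells in the glypican values was not tested.

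Once the run was a term in the model, the Het minus WT difference of Gpc3 was -0.14 (edgeR adjusted p = 0.568) and that of Gpc6 was -0.04 (adjusted p = 0.863). That of Gpc1 was -0.12 (edgeR adjusted p = 0.445), and the median of the 9 genes was -0.04. Without WT culture 16, both WT cultures were from the run 10 to 12, so genotype and run are only partly separable in that fit. Within the runs Gpc3 differed by 0.04 in cultures 10 to 12 and by -0.32 in cultures 15 to 18, and Sdc4 by 0.31 and -0.21. Sdc1 was lower in Het in both runs, by -0.09 in cultures 10 to 12 and -0.17 in cultures 15 to 18, and so was Gpc1, by -0.18 and -0.06. The later-registered pair, Het culture 11 and WT culture 16, joins the runs: there Gpc3 was higher in Het by 0.28, against -0.56 in the other 4 cultures. Within each of these sets the genotypes came from different runs, so genotype and run cannot be told apart there.

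**Figure D4:**
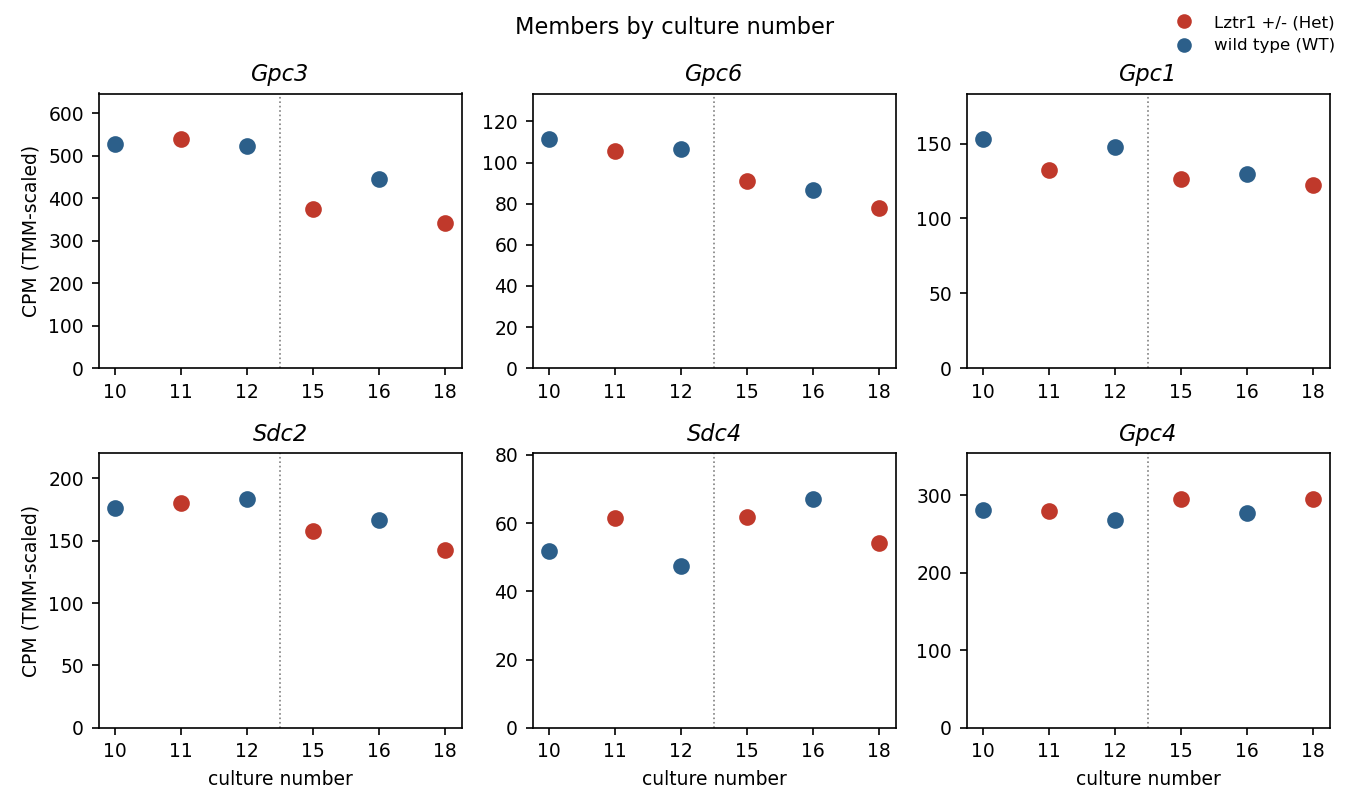
TMM-scaled CPM (axes from 0) of Gpc3, Gpc6, Gpc1, Sdc2, Sdc4 and Gpc4 against culture number, with Het cultures in red and WT cultures in blue; the dotted line parts cultures 10 to 12 and 15 to 18. Gpc3, Gpc6, Gpc1 and Sdc2 are lower in all cultures right of the line, and Gpc4 stays between 268 and 295 CPM.

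Gpc3 and Gpc4 are X-linked, and the cultures differed in sex by Xist and Y-linked transcripts: Het cultures 15 and 18 and WT culture 12 were male, and Het culture 11 and WT cultures 10 and 16 female. With genotype in the model, the male minus female difference was -0.24 for Gpc3 (95% interval -0.60 to 0.12) and 0.01 for Gpc4 (95% interval -0.14 to 0.16), both with edgeR adjusted p = 0.999. Below an unadjusted p of 0.05, 0 of the 9 genes differed by sex, beside 1.18% of all genes higher in male cultures, 1.2% lower and 2.38% in either direction, and 0.0341% of all genes passed the adjusted threshold.

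Gpc3, as the most abundant member, was also set against all other tested genes. The 3 genes whose log2 CPM followed it most closely over the 6 libraries were the imprinted RNA H19 (Pearson r 0.990), the tyrosine kinase gene Abl1 (0.988) and the carrier gene Slc16a4 (0.985). H19 gave 10400.3, 8423 and 7928 CPM in Het cultures 11, 15 and 18, against 10666, 10807 and 9385 CPM in WT cultures 10, 12 and 16, with the same 3 lowest libraries in the same order as Gpc3. All r values are descriptions over 6 libraries of 2 genotypes, and 256 of 14651 genes (1.75%) had r over 0.9.

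The region upstream of Gpc3 is shown because Gpc3 led the family in level and had its largest log2 difference between the culture runs. The 250 bases before its RefSeq start (GRCm38.p6, chrX:52613975-52614224, minus strand) are given 5′ to 3′ on the gene's strand, with matches to GGGCGG on either strand, a binding motif of SP-family factors, in capitals.
Gpc3: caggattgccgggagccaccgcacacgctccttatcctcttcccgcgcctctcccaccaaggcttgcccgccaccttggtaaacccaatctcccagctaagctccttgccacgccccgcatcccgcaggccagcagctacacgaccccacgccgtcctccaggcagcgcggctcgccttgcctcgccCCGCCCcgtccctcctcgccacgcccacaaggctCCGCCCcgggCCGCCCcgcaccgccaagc
The window had 3 matches and a GC content of 71.6%, against a median of 52.4% over 32536 promoters, of which 33.0% held at least 1 match. A RefSeq promoter was found for 7 of the 10 genes, not for Sdc2, Gpc1 or Gpc6. All 7 held at least 1 match, with 4 in Sdc4, 3 each in Sdc1, Sdc3, Gpc2 and Gpc3, and 1 each in Gpc4 and Gpc5. Gpc5, barely transcribed here, had the lowest GC content of the 7, at 51.2%, while the others lay between 66.0% and 76.4%. A match describes the letters only and no binding was measured.

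EdgeR on all 6 libraries called none of the enzymes that build and sulfate the chains, whereas DESeq2 called 1. Of 12 tested chain synthesis genes edgeR called 0, with 0 higher and 1 lower below an unadjusted p of 0.05 and 0 in DESeq2, and the median log2 difference was -0.05. For this and each following list, the share over all genes below that edgeR p was 5.56% higher and 6.65% lower. DESeq2 called 0.764% of all genes. The 3 smallest p-values belonged to enzymes of the linker that joins chain to core protein. Other linker enzyme genes, named after their values were seen, differed by 0.09 (Xylt1), 0.02 (B3galt6), -0.04 (B3gat3) and -0.24 (Pxylp1), none called by edgeR. Xylt2, which adds the first xylose, averaged 25.5 ± 0.432 CPM in Het cultures (SD, n = 3), against single values of 34.3, 33.8 and 26.2 CPM in WT cultures (log2 difference -0.30, SE 0.11, edgeR adjusted p = 0.354). WT culture 16 lay next to the Het values, and without it the difference was -0.41 (edgeR adjusted p = 0.0189). B4galt7, which adds the first galactose, differed by -0.17 and the xylose kinase gene Fam20b by -0.13, both with separate groups and neither called. Groups separate in the lower direction were seen for 3 of the 12 tested genes, beside 9.97% of all genes.

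Of 16 tested modification enzymes edgeR also called 0, with 2 higher and 2 lower below an unadjusted p of 0.05, and the median was -0.01. DESeq2 called 1, Hs6st2, which was higher. Hs6st2, a 6-O-sulfotransferase, gave 186, 171 and 174 CPM in Het cultures, against 137, 144 and 154.5 CPM in WT cultures, so the groups did not overlap (log2 difference 0.29, SE 0.064, edgeR adjusted p = 0.313; 0.0204 without WT culture 16). The 2-O-sulfotransferase gene Hs2st1 differed by 0.14, and Hs6st1, another 6-O-sulfotransferase gene, by -0.18, in the opposite direction to Hs6st2. Without WT culture 16 edgeR also called 1 gene of this list lower, Papss1 (log2 difference -0.19, edgeR adjusted p = 0.0474), named after its values were seen.

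Genes of chain trimming and breakdown mostly had negative differences, without calls. Of 12 tested genes 10 had a negative difference, beside 7387 of 14652 over all genes, and the median was -0.14. EdgeR called 0, with 0 higher and 3 lower below an unadjusted p of 0.05 (5.56% and 6.65% of all genes), and DESeq2 called 0. Among them were the lysosomal enzyme genes Naglu (log2 difference -0.36) and Sgsh (-0.31), which act on the ends of the chains. Sgsh gave 14.1, 12.95 and 10.5 CPM in Het cultures, against 14.7, 17.1 and 15.2 CPM in WT cultures, with no overlap (edgeR adjusted p = 0.400).

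The secreted and part-time carriers of heparan sulfate had a median of 0.15, with a positive difference for 9 of 10, beside 7265 of 14652 over all genes. The most abundant of them, Hspg2, named after its values were seen, differed by 0.17 in CPM (edgeR adjusted p = 0.445). By TPM it averaged 205 in Het and 237 in WT cultures, so its direction depended on the scale. EdgeR called 0 of them, with 2 higher and 0 lower below an unadjusted p of 0.05, and DESeq2 called 1, Nrp1, which was higher. Nrp1, a semaphorin and VEGF co-receptor that can carry a glycosaminoglycan chain, gave 153, 152 and 131 CPM in Het cultures, against 118, 118 and 122 CPM in WT cultures (log2 difference 0.29, SE 0.069, edgeR adjusted p = 0.313). The groups did not overlap, and without WT culture 16 Nrp1 was not called (edgeR adjusted p = 0.0506). Cd44, the hyaluronan receptor, gave 298, 384 and 370.2 CPM in Het cultures, against 211, 192 and 338 CPM in WT cultures (log2 difference 0.50, edgeR adjusted p = 0.389). Here WT culture 16 lay among the Het values, and without it the adjusted p was 0.0122 (log2 difference 0.80). Srgn, the serglycin gene of blood cells, differed by 0.56 at 3.69 to 6.79 CPM in Het and 3.62 to 3.95 CPM in WT cultures. It was highest in Het cultures 15 and 18, which also had the highest macrophage marker sums, while WT culture 16 had 388 TPM of these markers and 3.75 CPM of Srgn. Their part in the Srgn values was not tested.

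Among 16 tested proteases and lipases that shed or process these cores, edgeR called 0 (0 higher and 1 lower below an unadjusted p of 0.05, DESeq2 0), with a median of 0.03. Mmp14, a membrane protease that cleaves Sdc1, gave 482, 471 and 491 CPM in Het cultures, against 548, 548 and 505 CPM in WT cultures, with no overlap (log2 difference -0.15, SE 0.058, edgeR adjusted p = 0.374). Plau, the urokinase gene, differed by 0.50 (edgeR adjusted p = 0.430), and WT culture 16 read 109 CPM against 55.9 and 61.0 CPM in the other WT cultures. Without it the edgeR adjusted p of Plau was 0.00725 (log2 difference 0.87). The same fit called 1 gene of this list lower, Pcsk5 (log2 difference -0.57, edgeR adjusted p = 0.0426), named after its values were seen. It called 5.93% of all genes. Notum, a secreted WNT deacylase, differed by -0.81 at 0.920 to 1.06 CPM in Het and 1.01 to 2.39 CPM in WT cultures.

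Among 17 tested partners of the syndecan tail edgeR called 0, with 2 higher and 1 lower below an unadjusted p of 0.05, and the median was 0.01. DESeq2 called 2, Actn4 and Actn1, both higher, beside 0.764% of all genes. EdgeR without WT culture 16 called 5, all higher, beside 5.93% of all genes; besides Actn4 and Actn1 these were Pdcd6ip, Sdcbp and Ezr, named after their values were seen. Actn4, an actin cross-linker of the alpha-actinin family that Sdc4 binds, gave 1138, 1169 and 1145 CPM in Het cultures, against 836, 823 and 994 CPM in WT cultures (log2 difference 0.38, SE 0.080, edgeR adjusted p = 0.313). Actn1, its close relative, gave 1164, 1234 and 1267 CPM in Het cultures, against 898, 891 and 1100.2 CPM in WT cultures (log2 difference 0.34, SE 0.091, edgeR adjusted p = 0.313). Both genes had separate groups, and without WT culture 16 their adjusted p was 0.00433 and 0.00726. The kinase gene Cdk5 differed by -0.23 (edgeR adjusted p = 0.340).

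Of 20 tested heparin-binding ligands edgeR called 0 (1 higher and 3 lower below an unadjusted p of 0.05, DESeq2 0), with a median of 0.00. The higher one was Thbs1, the thrombospondin-1 gene, named after its values were seen, at 4161, 4254 and 3858 CPM in Het cultures, against 2512, 2391 and 3914 CPM in WT cultures (log2 difference 0.48, edgeR adjusted p = 0.357). Without WT culture 16 edgeR called 2 ligands, both higher, Thbs1 (log2 difference 0.74) and Hbegf (0.92), and 0 lower. The 3 lower ones below an unadjusted p of 0.05 in all 6 libraries were the related growth factors midkine and pleiotrophin and the MET ligand HGF. Mdk gave 169, 139.9 and 134 CPM in Het cultures, against 196, 190.0 and 177 CPM in WT cultures, with no overlap (log2 difference -0.34, SE 0.092, edgeR adjusted p = 0.313). Ptn gave 556, 627 and 450.0 CPM in Het cultures, against 710.2, 814 and 608 CPM in WT cultures, and overlapped (log2 difference -0.38, edgeR adjusted p = 0.356). Hgf differed by -0.42 at 8.92 to 9.24 CPM in Het and 10.2 to 14.7 CPM in WT cultures.

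Of 20 tested receptors that work with these proteoglycans edgeR called 0 (2 higher and 1 lower below an unadjusted p of 0.05, DESeq2 0), with a median of 0.06. Met, the HGF receptor gene, differed by 0.49, the WNT5A receptor gene Ror2 by -0.26, and the VEGF receptor gene Kdr by 0.57, which was at 16.5 to 19.1 CPM in Het and 7.43 to 16.4 CPM in WT cultures. Without WT culture 16 edgeR called 4 receptors higher and 2 lower, beside 5.93% of all genes called; Met (adjusted p = 0.0428), Ror2 (0.0315) and Kdr (0.0440) were among them. Kdr is also a marker of endothelium, whose marker sums were 14.5 to 19.8 TPM in Het and 11.4 to 16.6 TPM in WT cultures; its part in the Kdr values was not tested.

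**Figure D5:**
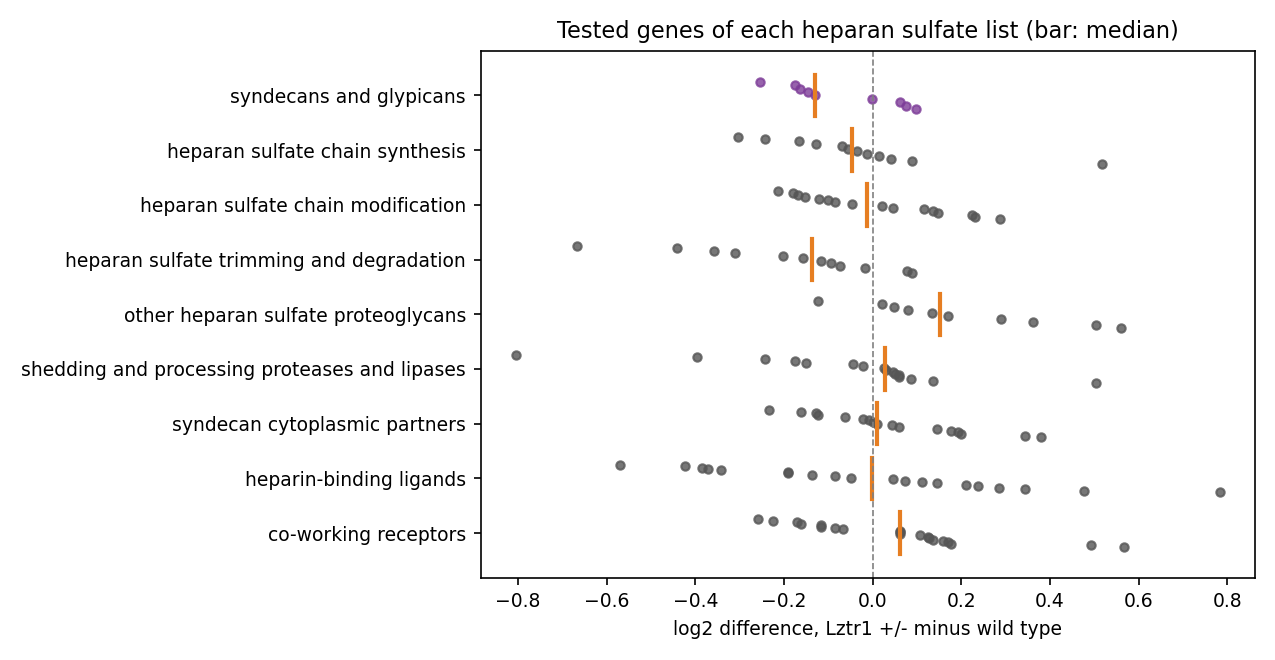
Log2 difference in CPM, Het minus WT, of each tested gene (points) in the syndecan and glypican families and in 8 lists around them, with the median of each list as an orange bar. Medians run from -0.14 for trimming and degradation to 0.15 for the other proteoglycans, and no point is called by edgeR.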

How the data were processed

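Per the labels' protocols, RNA sequencing libraries were made from total RNA with an Illumina TruSeq kit, 1 library per culture. The deposited expected counts are RSEM's gene-level estimates, per the file headers, and share reads that match several genes; 7.53% to 8.80% of a library's values were not whole. Also per the file headers, the deposited TPM column holds RSEM's level per effective length, scaled to a fixed library sum. The submitters' processing notes name RSEM 1.3.1, DESeq2 and mm10, and the labels state no aligner, annotation release or strand setting. Symbols and positions came from GENCODE M21 (GRCm38, the same assembly), which named 51633 of 51826 genes.

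Expected counts were rounded, filtered with filterByExpr (14652 genes left) and scaled by TMM. The quasi-likelihood test in edgeR 4.0.16 (R 4.3.3) compared genotypes in all 6 libraries without covariates; calls were made below 0.05 after Benjamini-Hochberg adjustment over all genes tested. Differences are Het minus WT on the log2 scale. Biological variation between cultures was 11.3% (edgeR's coefficient), with a median SE of 0.11. Confidence intervals are at 95%; counting floors are 3 counts and cover counting error only. Alternatives were DESeq2 1.42.0, limma 3.58.1 on log2(TPM + 0.5) or log2(TPM + 1), other scalings and filters, effective lengths as an offset, culture run, registration block or sex as a term, and each culture left out. DESeq2 gave no adjusted p for some low genes, which count as not called. The plain Het against WT comparison in edgeR, DESeq2 and limma was also run on simulated counts, and the other steps were not. Coding regions were aligned with MAFFT 7.526.

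The members and the lists of related genes were chosen with earlier results of these data known. The text names all 10 members, Lztr1, the 3 tested genes with the smallest unadjusted p in each list other than the markers, and the 3 genes most correlated with the most abundant member. One list gene that this rule names is not reported here. Dcn, a fibroblast marker, was named after its values were seen, as were the list genes so marked above. List genes Pgap6 and Sdcbp3 had no match and were not analysed here.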

Additional observations from a re-analysis of the deposited data

Results flagged for a closer look

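For 3 members, every Het culture was above every WT culture in one subset of the study and below every one in the other, and the differences below are on the log2 CPM scale, Het minus WT. Gpc2 and Gpc6 also differed in sign between subsets, but with overlapping cultures in at least one of them. By sex, Gpc3 differed by 0.1533 among female cultures (Het culture 11 above WT cultures 10 and 16) and by -0.5518 among male cultures (Het cultures 15 and 18 below WT culture 12). Sdc2 differed by 0.0742 among the female cultures and by -0.293 among the male cultures. By culture run, Gpc3 differed by 0.0354 in cultures 10 to 12 and by -0.3162 in cultures 15 to 18. Sdc4 differed by 0.3112 in cultures 10 to 12 and by -0.2136 in cultures 15 to 18. Each subset holds 1 culture of one genotype and 2 of the other, so its groups are separate whenever the single culture is highest or lowest. The share of all genes with such a reversal was not counted, so 3 members cannot be read as many or few. The difference between subsets was not tested. Sex and culture run cannot be told apart in the Het group, where the female culture is number 11 and both male cultures are from the run 15 to 18.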

How the results depend on the processing

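Besides Gpc2, every tested member kept its direction in all 16 alternatives, and Gpc1 without WT culture 16 was the only member called in any of them. The Sdc4 difference kept its sign only barely, at 0.008 in limma at either pseudocount and 0.005 without WT culture 12. The number of genes called was 1 in edgeR, 112 in DESeq2 and 32 without a count filter, and it was 0 with effective lengths as an offset and 0 in limma at either pseudocount. Leaving out 1 culture gave 0 to 896 genes called, 896 without WT culture 16 and 0 otherwise, and 0 to 1 members called. The Lztr1 difference was -0.91 with the length offset (edgeR adjusted p = 0.0852), -0.93 and -0.92 in limma on log2(TPM + 0.5) and log2(TPM + 1) (adjusted p = 0.258 and 0.260), and -1.06 to -0.97 with 1 culture left out. The Gpc2 difference, -0.00051 in edgeR, turned positive with DESeq2 (0.0087), DESeq2 size factors in edgeR (0.0064), no count filter (0.0094), the culture run (0.093) or registration block (0.013) as a term, and ran from -0.13 to 0.14 with 1 culture left out. The causes were not tested. No paired analysis was possible because the genotypes share no culture number. With 3 cultures per group, a median SE of 0.11, the fit on all 6 libraries did not resolve differences the size of those of Sdc1 or Gpc1 after adjustment.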
